A study of Macaca mulatta with 20 samples.

Results

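The genes described here are 53 genes of DNA replication and mitosis in the corpus luteum of the rhesus macaque. They were taken by name, not by their values: genes whose symbol is MCM, ORC or GINS with a number, genes whose symbol starts with CENP, BUB or NCAP, and a list of 16 further symbols, of which 14 were found. The platform's annotation named 14132 genes through probe sets with a single symbol, and each gene was read from its brightest probe set over the 20 arrays. CDC20 and PLK1, both on the list of 16, had no probe set with their symbol alone and have no value here. The same holds for BUB1 and for the helicase subunits MCM6 and MCM7. The corpus luteum is the gland that the ovulated follicle turns into. It was removed in natural menstrual cycles at 5 stages, dated from the midcycle peak of luteinizing hormone (LH): early (days 3 to 5, while luteal tissue forms), mid (days 7 to 8, peak progesterone capacity), mid-late (days 10 to 12, before regression begins), late (days 14 to 16, when secretion ceases) and very-late (days 18 to 19, at menses, when the tissue is remodelled and cells die). Each stage had 4 arrays from whole frozen corpora lutea of normally cycling females, labelled as biological replicates. The labels do not say which animal gave which array, and no hormone or other agent was given. The day of the LH peak was set from the fall of serum estradiol.

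A cell that divides first loads the MCM helicase onto origins of replication with the help of the origin recognition complex and CDC6, and then starts the helicase with CDC45 and the GINS complex. Cyclins E and A drive entry into and passage through replication, and cyclin B with CDK1 drives entry into mitosis. Condensins and topoisomerase compact and untangle the chromosomes, centromere proteins tie them to the spindle, and checkpoint proteins delay their separation until all are attached. In the primate corpus luteum the young gland grows a dense bed of capillaries, and dividing endothelial cells are a known feature of that period, while the steroid-producing cells from the follicle mostly leave the cell cycle.

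All values are the authors' RMA values, log2 of signal intensity for each probe set, and levels of different genes cannot be set against each other on this scale. Probe sets for viral genomes, 674 of them, served as background. A gene was taken as above background where the mean of at least a single stage exceeded their 95th percentile, 4.30 on the log2 scale. By this measure 42 members were above background and 11 were not (CENPC, CENPH, CENPI, CENPL, CENPO, CENPT, CCNE2, CDC6, ORC1, MCM8 and MCM9). Above background were 4 of 6 genes of origin recognition and licensing, 10 of 12 of the helicase and its activators, 5 of 6 cyclins and CDK1, 12 of 18 centromere genes, all 5 checkpoint and kinase genes and all 6 genes of condensin and chromosome structure. The tissue carried its own markers: the mean of 5 steroidogenic genes lay at 11.0 to 12.4 on the arrays of the first 4 stages and at 7.30 to 9.02 on the very-late arrays.

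Some arrays stood apart. Array medians lay between 3.88 and 3.98. The GAPDH signal of the 3' end exceeded that of the 5' end by 2.70 log2 units in very-late replicate 1, against 0.831 to 1.78 in the other 19 arrays. Mitochondrial probe sets were averaged where their values ranged over more than 4 log2 units between arrays, a choice that favours a wide gap. Their mean was low (6.06 to 8.50) on 7 arrays and high (12.6 to 13.6) on the other 13. The low arrays were all 4 of the mid stage, replicate 4 of the early, replicate 1 of the mid-late and replicate 2 of the very-late stage. Counts with this split taken into account are given beside the results they touch. For arrays, their number limits the precision.

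Most members were highest in the youngest glands. Of the 53 members, 38 had their highest stage mean at the early stage and 32 their lowest at the very-late stage. Among the 42 above background, 34 were highest at early, and 29 were lowest at very-late and 8 at late. CCNA2, CENPA, CENPE and CENPU were above background through their early mean alone, so the filter fixed their place among the 34. In 19 of the 42 the stage mean was lower at each next stage. Shares of all genes with these patterns were not computed. The test for any difference between stages (limma's moderated F, Benjamini-Hochberg adjusted p under 0.05 over 52707 probe sets) called 38 of the 53, while 33.6% of all genes were called. Because the tissue was measured whole, fewer dividing cells and less of a transcript in each dividing cell cannot be told apart.

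**Figure D1:**
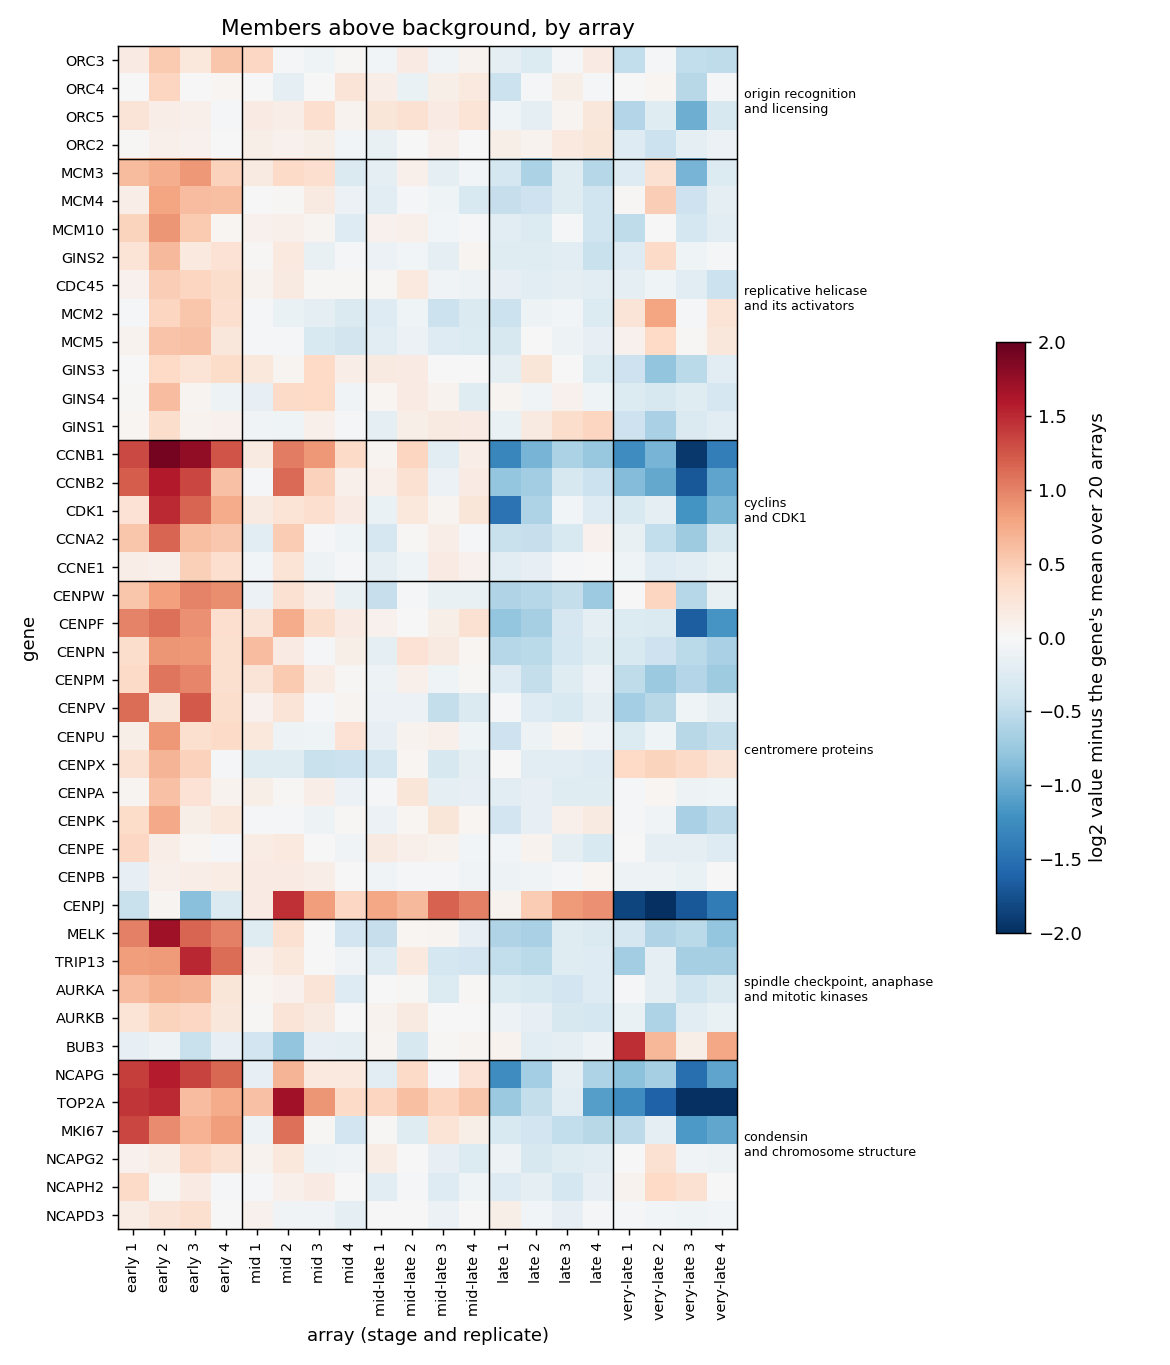
Log2 value of each of the 42 members above background on each of the 20 arrays, minus the gene's mean over all arrays (colour, log2 units; values beyond 2 take the end colour), with genes in rows grouped by role and arrays in columns by stage. The early columns are red and the late columns blue for most rows, and BUB3 and CENPJ follow other courses.

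The comparison of late with early asks how far these genes differed between the gland that ends secretion and the gland that forms. At the late stage 30 members fell and 1, CENPJ, rose, with 22 not past the test. Over all genes 8.07% were called lower and 4.22% higher. The median difference of the members was -0.46 log2 units, and that of all genes was -0.02. All 4 late arrays lay below all 4 early arrays for 29 members, and 12.0% of all genes showed such a separation. Of the 31 calls, 25 passed whichever array of the 2 stages was left out. On the 13 arrays high in mitochondrial probe sets 30 members were called, and 28 with a term for the split. All comparisons with the early stage share the same 4 early arrays.

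**Figure D2:**
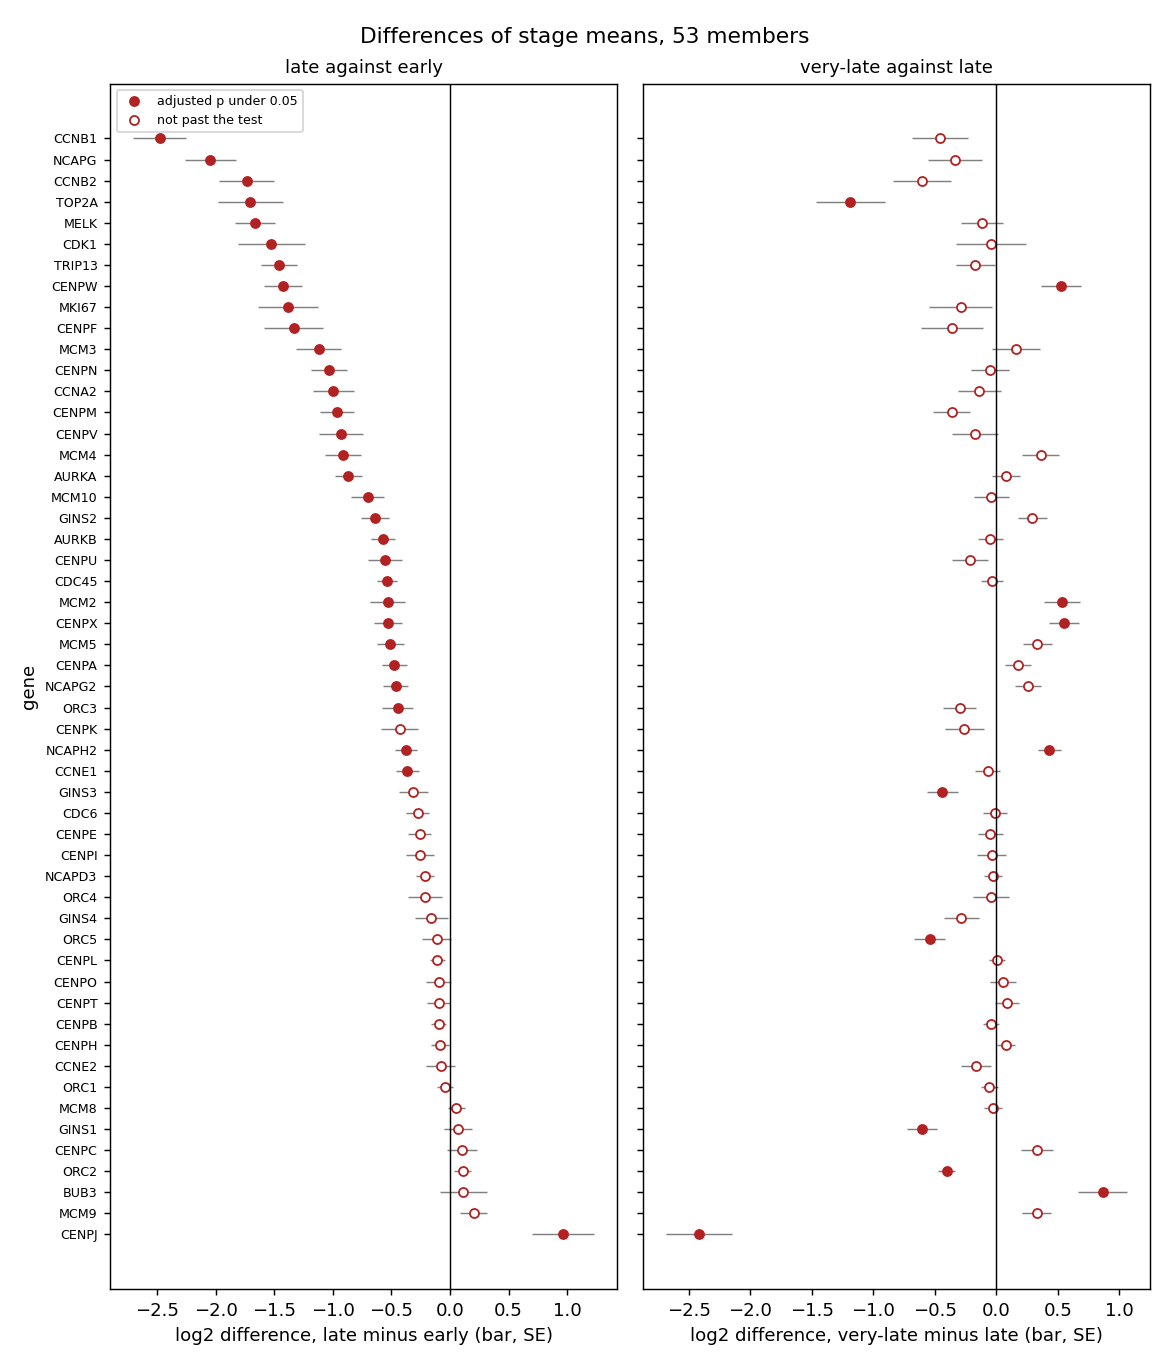
Difference of stage means for each of the 53 members (points, log2 units; lines, SE; 4 arrays per stage), late minus early on the left and very-late minus late on the right, filled where the adjusted p is under 0.05. On the left 30 filled points lie below 0 and CENPJ above it, while on the right 6 lie below 0 and 5 above.

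The cyclins and CDK1 had the largest median difference between late and early of the roles, -1.26 log2 units. Of these 6 genes 5 fell at the late stage. CCNB1, cyclin B1, which with CDK1 drives entry into mitosis, had log2 values of 7.08, 7.68, 7.53 and 7.02 in early corpora lutea, 5.94, 6.78, 6.62 and 6.14 in mid, 5.82, 6.19, 5.55 and 5.89 in mid-late, 4.45, 4.83, 5.13 and 5.00 in late, and 4.53, 4.83, 3.83 and 4.37 in very-late. Each early array was above every array of any other stage, and late and very-late arrays overlapped. CCNB1 averaged 4.85 ± 0.29 in late and 7.33 ± 0.33 in early corpora lutea (SD, n = 4 each), which was 5.56-fold lower, a log2 difference of -2.48 ± 0.23 (SE, limma adjusted p = 1.44e-05). It was the largest fall among members above background at both stages.

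CCNB2, the other B-type cyclin measured, read 4.71, 4.78, 5.16 and 5.06 on the late arrays and 6.70, 7.06, 6.82 and 6.07 on the early arrays, and fell by 1.74 ± 0.24 log2 units (limma adjusted p = 0.000255). CDK1, the kinase that both cyclins activate, read 4.26, 5.13, 5.69 and 5.49 on the late arrays and 6.04, 7.24, 6.91 and 6.48 on the early arrays. The 2 sets of CDK1 values did not overlap, although late replicate 1 stood well below the other late arrays, and the difference was -1.52 ± 0.28 (limma adjusted p = 0.00278). CCNA2, cyclin A2, which acts in replication and early mitosis, was not above background at late (3.86) and was at 4.86 at early, so it was at least 1.47-fold lower (limma adjusted p = 0.00187). CCNE1, a cyclin of entry into replication, differed less (-0.36 ± 0.10, limma adjusted p = 0.0325) and passed with only 3 of the 8 arrays left out in turn, failing when early array 3 or 4 or late array 1, 2 or 3 was dropped. CCNE2 was not above background at any stage.

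Of the 6 genes of condensin and chromosome structure 5 fell, with a median difference of -0.92. TOP2A, the topoisomerase that untangles the DNA of dividing cells, read 8.42, 8.48, 7.60 and 7.72 in early corpora lutea, 7.57, 8.66, 7.87 and 7.37 in mid, 7.42, 7.58, 7.41 and 7.54 in mid-late, 6.24, 6.51, 6.76 and 5.89 in late, and 5.74, 5.37, 4.85 and 4.70 in very-late. The first 3 stages overlapped, and every late array was below them and above every very-late array. TOP2A fell by 1.70 ± 0.28 at late relative to early (limma adjusted p = 0.00104). MKI67, the protein that coats mitotic chromosomes and is read as Ki-67 in pathology, read 5.06, 4.98, 4.87 and 4.82 in late and 6.70, 6.32, 6.05 and 6.20 in early corpora lutea (-1.38 ± 0.26, limma adjusted p = 0.00264). The condensin I subunit NCAPG read 3.69, 4.25, 4.76 and 4.32 in late and 6.31, 6.50, 6.29 and 6.09 in early corpora lutea. Its late mean of 4.25 was not above background, so it was at least 3.68-fold lower (limma adjusted p = 3.24e-05). The condensin II subunits had smaller values: NCAPG2 was at -0.46 ± 0.11 (limma adjusted p = 0.0116), NCAPH2 at -0.37 ± 0.10 (limma adjusted p = 0.0221) and NCAPD3 at -0.21 ± 0.07, which did not pass (limma adjusted p = 0.0924). NCAPH2 did not pass when early array 1 or 3 or late array 3 was dropped (adjusted p up to 0.0764).

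**Figure D3:**
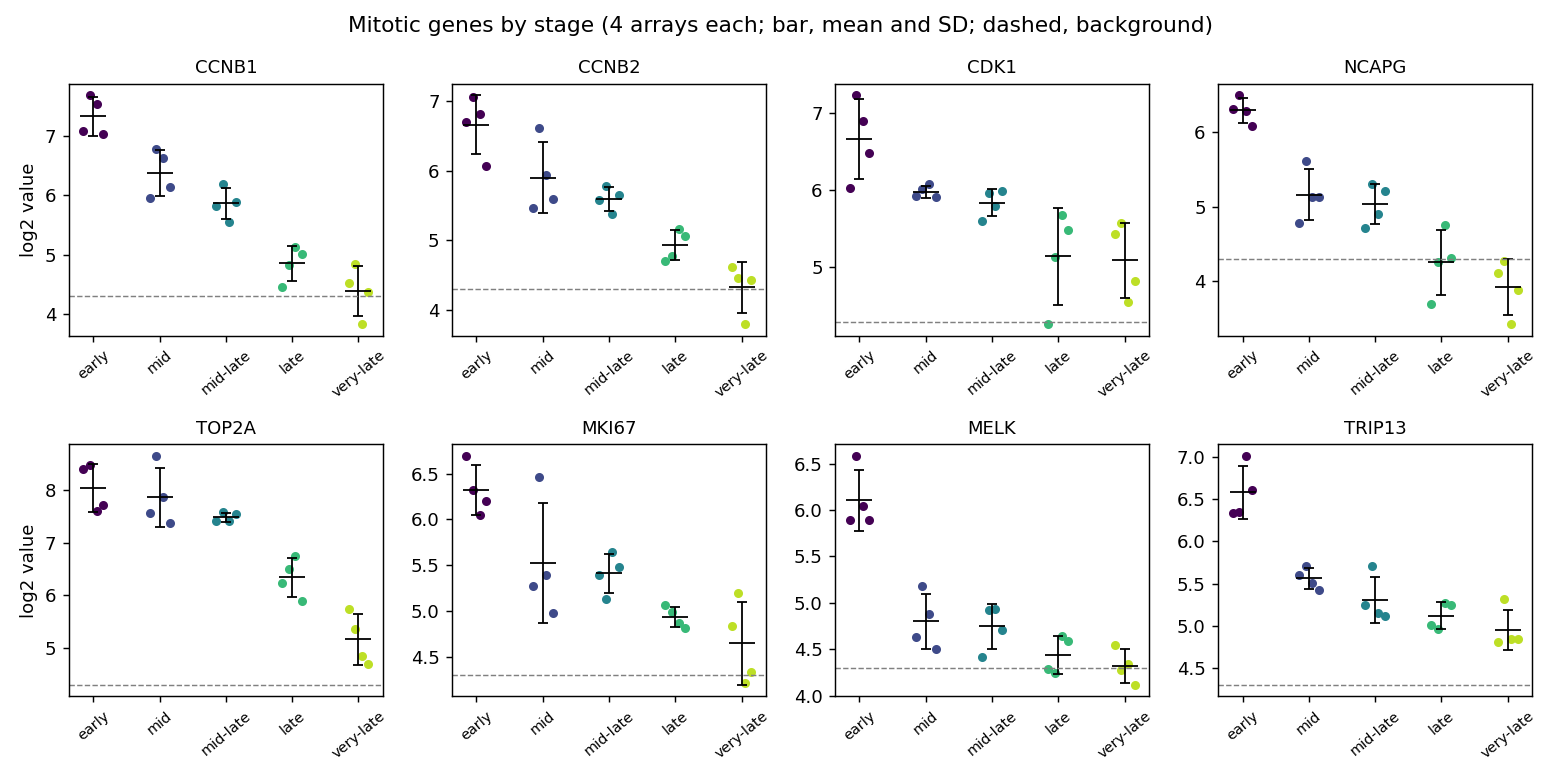
Log2 values of 8 mitotic members on each array (points), by stage from early to very-late, with the mean and SD of 4 arrays and a dashed line at the background of 4.30; the vertical axes do not start at 0. CCNB1, NCAPG and MELK have their early arrays above all others, and TOP2A stays between 7.37 and 8.66 through mid-late before its late and very-late arrays come lower.

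Among the 5 genes of the spindle checkpoint and mitotic kinases, 4 fell at late, with a median of -0.87 over the 5. MELK, a kinase found mainly in dividing cells, read 4.28, 4.24, 4.65 and 4.59 in late and 5.90, 6.58, 6.04 and 5.89 in early corpora lutea, a log2 difference of -1.67 ± 0.17 (limma adjusted p = 2.27e-05). TRIP13, an ATPase that takes apart checkpoint complexes, read 5.01, 4.96, 5.27 and 5.25 in late and 6.34, 6.35, 7.02 and 6.61 in early corpora lutea (-1.46 ± 0.16, limma adjusted p = 3.24e-05). The groups of both genes were far apart relative to their spread. AURKA, the kinase of spindle poles, differed by -0.87 ± 0.12 (limma adjusted p = 0.000193), and AURKB, the kinase that corrects attachments at centromeres, by -0.57 ± 0.10 (limma adjusted p = 0.00178). BUB3, which carries checkpoint kinases to the kinetochore, was the exception at 0.11 ± 0.20 (limma adjusted p = 0.856).

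Of the 18 centromere genes 8 were lower, 1 (CENPJ) was higher and 9 were not past the test, with a median of -0.34. CENPC, CENPH, CENPI, CENPL, CENPO and CENPT are among the 9. They were not above background at any stage, so a fall could not be seen in them, and the median includes them. CENPW, a histone-fold protein of the inner kinetochore, read 5.13, 5.16, 5.26 and 5.00 in late and 6.29, 6.56, 6.73 and 6.66 in early corpora lutea, a log2 difference of -1.42 ± 0.16 (limma adjusted p = 5.37e-05). CENPF, a large protein of the outer kinetochore that accumulates before mitosis, read 5.08, 5.20, 5.52 and 5.66 in late and 6.85, 6.96, 6.77 and 6.19 in early corpora lutea (-1.33 ± 0.25, limma adjusted p = 0.00304). Neither gene's late and early arrays overlapped. CENPN and CENPM, of the constitutive centromere network, differed by -1.03 ± 0.15 and -0.96 ± 0.15 (limma adjusted p = 0.000522 and 0.000623), and CENPV by -0.93 ± 0.19 (limma adjusted p = 0.00514). CENPA, the histone variant that marks the centromere, and CENPU fell as well, but both were not above background at late, so they were at least 1.13-fold and at least 1.23-fold lower. CENPU did not pass when early array 2 or late array 1 or 2 was dropped. CENPX differed by -0.53 ± 0.12 (limma adjusted p = 0.0107) with overlapping arrays. CENPB, which binds repeats of centromeric DNA, had the smallest difference of the centromere genes above background: it read 7.70, 7.72, 7.76 and 7.84 in late and 7.63, 7.90, 7.93 and 7.95 in early corpora lutea (-0.09 ± 0.06, limma adjusted p = 0.495).

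CENPJ went the other way. The rule takes it by its symbol, but it is a protein of centrioles. It read 5.66, 6.15, 5.25 and 5.80 in early corpora lutea, 6.26, 7.56, 6.93 and 6.50 in mid, 6.86, 6.74, 7.28 and 7.11 in mid-late, 6.17, 6.60, 6.95 and 7.01 in late, and 4.25, 3.73, 4.40 and 4.69 in very-late. It was thus high through the 3 middle stages, with every very-late array below every array of the other stages. At late it was 0.97 ± 0.27 above early (limma adjusted p = 0.033), a call that held with only 2 of the 8 arrays left out in turn and was lost when early array 1, 3 or 4 or late array 2, 3 or 4 was dropped (adjusted p up to 0.119). The other 2 probe sets of CENPJ were below background at every stage and differed by 0.04 and -0.02 between late and early (limma adjusted p = 0.837 and 0.963). The first of these 2 passed the test in the same direction elsewhere, at 0.31 for mid-late minus early and -0.26 for very-late minus late (limma adjusted p = 0.0229 and 0.0186), and the second did not (0.02 and -0.03, limma adjusted p = 0.96 and 0.915).

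Of the 12 genes of the helicase and its activators 7 fell at late, with a median of -0.52 over the 12. The 12 include MCM8 and MCM9, which were placed here by their symbols and were not above background at any stage. MCM3, a subunit of the helicase ring, read 5.46, 5.18, 5.57 and 5.25 in late and 6.45, 6.53, 6.68 and 6.27 in early corpora lutea (-1.12 ± 0.19, limma adjusted p = 0.00164). MCM4, another subunit, read 6.55, 6.58, 6.76 and 6.61 in late and 7.14, 7.79, 7.63 and 7.60 in early corpora lutea (-0.91 ± 0.15, limma adjusted p = 0.0013). In neither gene did late and early arrays overlap. The subunits MCM2 and MCM5 differed by -0.53 ± 0.15 and -0.51 ± 0.12 (limma adjusted p = 0.0344 and 0.0106). MCM2 did not pass when early array 2, 3 or 4 or late array 1, 2 or 4 was dropped (adjusted p up to 0.12). GINS2 fell by 0.64 ± 0.12 (limma adjusted p = 0.00284), and MCM10 and CDC45, which help start the helicase, were not above background at late and were at least 1.50-fold and at least 1.37-fold lower. The other GINS subunits did not pass: GINS1 was at 0.07 ± 0.12, GINS3 at -0.31 ± 0.12 and GINS4 at -0.16 ± 0.14 (limma adjusted p = 0.854, 0.155 and 0.645).

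Origin recognition and licensing had the smallest median difference between late and early, -0.16. Of its 6 genes only ORC3 was called (-0.44 ± 0.13, limma adjusted p = 0.0487), with overlapping arrays, and it passed with only 2 of the 8 arrays left out in turn, failing when early array 2, 3 or 4 or late array 1, 2 or 3 was dropped. ORC2, a core subunit of the complex, averaged 6.42 ± 0.05 at early, 6.44 ± 0.08 at mid, 6.36 ± 0.10 at mid-late and 6.53 ± 0.08 at late (SD, n = 4 each). Late minus early was 0.11 ± 0.07 for ORC2, -0.21 ± 0.14 for ORC4 and -0.11 ± 0.13 for ORC5 (limma adjusted p = 0.458, 0.5 and 0.73). CDC6 and ORC1 were not above background at any stage.

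The comparisons of mid and mid-late with early show how soon the members were lower. At mid 6 members fell and 0 rose: MELK, NCAPG, TRIP13, CENPW, CENPX and MCM5. Over all genes 0.347% were called lower and 0.248% higher, and the median difference was -0.23 for the members and -0.02 for all genes. Before adjustment, at p under 0.05, 27 members were lower and 1 higher. The share of all genes at that looser threshold was not computed, so these 2 counts have no such share beside them. All 4 mid arrays lay below all 4 early arrays for 11 members, against 5.63% of all genes. MELK read 4.64, 5.18, 4.88 and 4.51 in mid corpora lutea, every array below the early ones, and differed by -1.30 ± 0.17 (limma adjusted p = 0.0041). TRIP13 read 5.60, 5.71, 5.50 and 5.43 in mid corpora lutea and differed by -1.02 ± 0.16 (limma adjusted p = 0.0112). These 2 passed whichever array of the 2 stages was left out, and the other 4 did not. With early array 2 or late array 2 dropped the count was 3, and with early array 3 or mid array 3 or 4 dropped it was 2. A term for the split by mitochondrial probe sets, in which all 4 mid arrays are low, left 1 call.

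At mid-late 16 members fell and CENPJ rose (1.28 ± 0.27, limma adjusted p = 0.0123, but 0.0513 without mid-late replicate 3). Over all genes 4.56% were called lower and 1.75% higher, and the median difference was -0.32 for the members and -0.03 for all genes. The mid-late arrays lay below all early arrays for 25 members, against 11.1% of all genes. CCNB1 fell by 1.46 ± 0.23 (limma adjusted p = 0.00238), CCNB2 by 1.07 ± 0.24 and MCM3 by 0.75 ± 0.19 (limma adjusted p = 0.0174 and 0.0371). With single arrays dropped in turn, CCNB2 passed in 5 of 8 fits, losing its call with early array 2 or 3 or mid-late array 3 (adjusted p up to 0.0682). MCM3 passed in 2 of 8, those with early array 4 or mid-late array 2 dropped (adjusted p up to 0.118 in the others). Of the 17 calls 9 passed whichever array was left out, and the count was 11 without early replicate 2, early replicate 3 or mid-late replicate 3. On the 13 arrays high in mitochondrial probe sets it was 16.

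Neighbouring stages from mid to late gave no calls. Between mid-late and mid 0 members were called by limma, and 0.0142% of all genes were called lower and 0% higher. Before adjustment, at p under 0.05, 4 members were lower and 0 higher. Between late and mid-late 0 were called, and over all genes 0.00708% were called lower and 0% higher. Before adjustment 12 members were lower and 1 higher. All these shares of genes are at adjusted p under 0.05, and shares before adjustment were not computed. In that second comparison the late arrays lay below all mid-late arrays for 13 members, against 3.76% of all genes, and the median difference was -0.16 for the members and 0.00 for all genes. Its largest values were -1.14 ± 0.28 for TOP2A and -1.01 ± 0.23 for CCNB1 (limma adjusted p = 0.237 and 0.167). With array weights, or with only the 8 arrays of the 2 stages, 1 member passed.

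The share of the whole decline that had taken place by each stage differed between members. For the 11 members that fell by at least 1 log2 unit between early and very-late and were above background at very-late, the share by mid was 73.1% for MELK, 62.5% for TRIP13, 32.5% for CCNB1 and 6.45% for TOP2A. NCAPG, CCNA2 and CENPJ also fell by at least 1 unit but were not above background at very-late, so no share is given for them. By late it was 93.4% for MELK, 97.0% for CDK1, 84.3% for CCNB1 and 59.0% for TOP2A. TOP2A had the lowest share of the 11 at mid, mid-late and late, read from its brightest probe set. Its second probe set, also above background, took another course. It was below early by 0.27 at mid, 0.52 at mid-late, 1.06 at late and 1.31 at very-late. Very-late means of MELK (4.32), CCNB2 (4.32) and CCNB1 (4.39) were only just above the background of 4.30. Their lowest very-late arrays, at 4.12, 3.79 and 3.83, were under it. A further fall could be hidden there, which would make their shares too high. All shares are descriptions of 4 arrays per stage, and differences between genes were not tested.

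**Figure D4:**
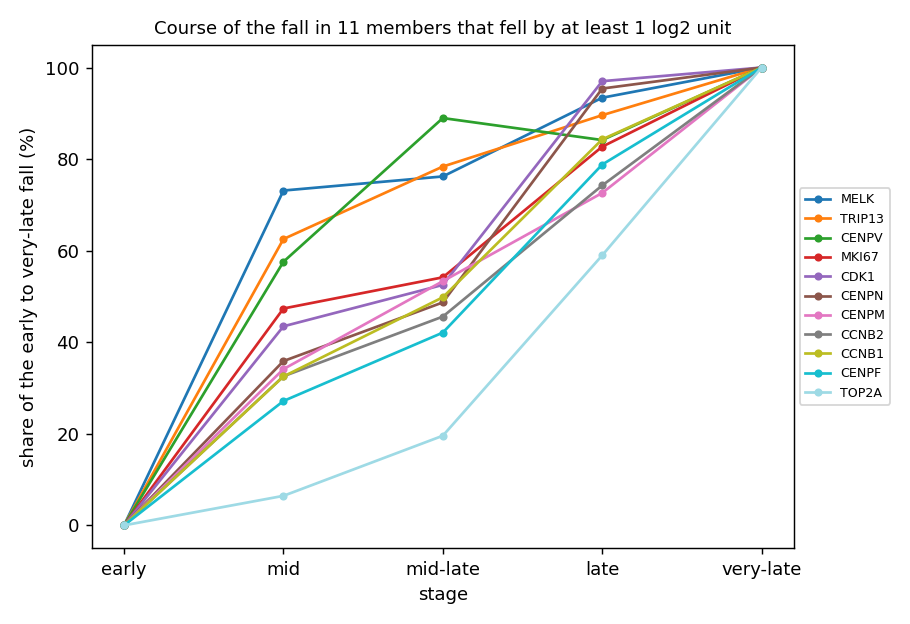
Share of the early minus very-late difference of stage means (vertical axis, %) reached by each stage, for the 11 members that fell by at least 1 log2 unit and were above background at very-late. Each gene is read from its brightest probe set. MELK and TRIP13 run highest at mid (73.1% and 62.5%) and TOP2A lowest (6.45%), reaching 59.0% at late.

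At the very-late stage 33 members were lower and 3 higher than at early, while 17.0% of all genes were called lower and 11.9% higher. The median difference was -0.54 for the members and -0.01 for all genes. The very-late arrays lay below all early arrays for 32 members, against 15.6% of all genes. CCNB1 fell by 2.94 ± 0.23 (limma adjusted p = 4.91e-08) and TOP2A by 2.89 ± 0.28 (limma adjusted p = 6.35e-07). CCNB2 fell by 2.34 ± 0.24 (limma adjusted p = 1.15e-06), and NCAPG, not above background at very-late, was at least 4.00-fold lower (limma adjusted p = 3.83e-07). ORC5 (-0.65 ± 0.13), ORC2 (-0.29 ± 0.07) and GINS1 (-0.54 ± 0.12), which were not called at late, passed here (limma adjusted p = 0.000949, 0.00568 and 0.00325). Without very-late replicates 1 and 2 together 30 members were lower and 1 higher, and ORC2 (-0.20) and GINS1 (-0.40) were no longer called (limma adjusted p = 0.104 and 0.0619). The 3 higher members were BUB3, and MCM9 and CENPC, of which the last 2 were not above background at any stage. Of the 36 calls 30 passed whichever array was left out, and 33 members were called on the 13 arrays high in mitochondrial probe sets.

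The comparison of very-late with late asks how the members differed once the gland broke down. Here 6 members fell and 5 rose. Over all genes 11.2% were called lower and 10.2% higher, so both counts were near those of the genes as a whole, and the median difference was -0.05 for the members and 0.01 for all genes. The 6 that fell were CENPJ, TOP2A, GINS1, ORC5, GINS3 and ORC2. CENPJ, not above background at very-late, was at least 4.79-fold lower (limma adjusted p = 5.41e-06). TOP2A fell by a further 1.18 ± 0.28 (limma adjusted p = 0.00668). GINS1, a GINS subunit, read 7.25, 7.01, 7.37 and 7.43 in very-late and 7.53, 7.85, 8.02 and 8.09 in late corpora lutea (-0.60 ± 0.12, limma adjusted p = 0.00176). ORC5 differed by -0.54 ± 0.13 and ORC2 by -0.40 ± 0.07 (limma adjusted p = 0.00628 and 0.000588). GINS3 (-0.44 ± 0.12, limma adjusted p = 0.0226) had overlapping arrays and did not pass when late array 2 or 3 or very-late array 2 was dropped. Between the same stages CCNB1 was at -0.46 ± 0.23, CDK1 at -0.05 ± 0.28 and MKI67 at -0.29 ± 0.26, none of them past the test (limma adjusted p = 0.227, 0.953 and 0.568).

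The 5 that rose were BUB3, CENPX, MCM2, CENPW and NCAPH2. BUB3 read 9.82, 9.88, 9.54 and 9.83 in early corpora lutea, 9.60, 9.21, 9.82 and 9.80 in mid, 10.05, 9.66, 10.01 and 10.04 in mid-late, 10.06, 9.77, 9.81 and 9.88 in late, and 11.46, 10.65, 10.11 and 10.76 in very-late. Every very-late array was above all the others, and very-late replicate 1, the array with the high GAPDH 3' excess, was the highest. BUB3 rose by 0.86 ± 0.20 relative to late (limma adjusted p = 0.00616), and by 0.63 (limma adjusted p = 0.0151) without very-late replicate 1. CENPX read 7.01, 7.05, 6.99 and 6.86 in very-late and 6.59, 6.39, 6.38 and 6.34 in late corpora lutea (0.55 ± 0.12, limma adjusted p = 0.00387). NCAPH2 read 6.66, 6.98, 6.89 and 6.60 in very-late and 6.34, 6.42, 6.23 and 6.42 in late corpora lutea (0.43 ± 0.10, limma adjusted p = 0.00448). Another 2 NCAPH2 probe sets, also above background, were at 0.20 and 0.02 and did not pass (limma adjusted p = 0.387 and 0.948). CENPX and the brightest NCAPH2 probe set were separated between the stages, and relative to early both were near 0 at very-late (0.02 ± 0.12 for CENPX and 0.06 ± 0.10 for NCAPH2, limma adjusted p = 0.937 and 0.774).

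MCM2 read 7.50, 8.04, 7.20 and 7.52 in very-late and 6.82, 7.14, 7.19 and 6.97 in late corpora lutea, and its mean of 7.56 at very-late equalled the early mean of 7.56. The groups were separated by the lowest very-late and the highest late array only. MCM2 rose by 0.53 ± 0.15 (limma adjusted p = 0.0209) but did not pass when late array 1 or 4 or very-late array 2 was dropped (adjusted p up to 0.0725). The late arrays serve both its fall relative to early and its rise at very-late. The other measured subunits of the helicase ring were not past the test: MCM5 was at 0.33 ± 0.12 with separated arrays, MCM4 at 0.36 ± 0.15 and MCM3 at 0.16 ± 0.19 (limma adjusted p = 0.066, 0.15 and 0.699). Very-late replicate 2 was the highest very-late array for each of MCM2, MCM3, MCM4 and MCM5. CENPW was at 0.52 ± 0.16 (limma adjusted p = 0.0379) with overlapping arrays, and this call held with only 1 of the 8 arrays left out in turn, failing when any late array or very-late array 1, 2 or 4 was dropped. Without very-late replicates 1 and 2 together, 6 members were lower and 1, NCAPH2, was higher than at late (0.39, limma adjusted p = 0.0378). CENPF took the place of GINS3 among the 6 lower members (limma adjusted p = 0.00979 for CENPF and 0.198 for GINS3), while BUB3 was at 0.55 and CENPX at 0.50 (limma adjusted p = 0.0766 and 0.0545). The count on the 13 arrays high in mitochondrial probe sets was 10.

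**Figure D5:**
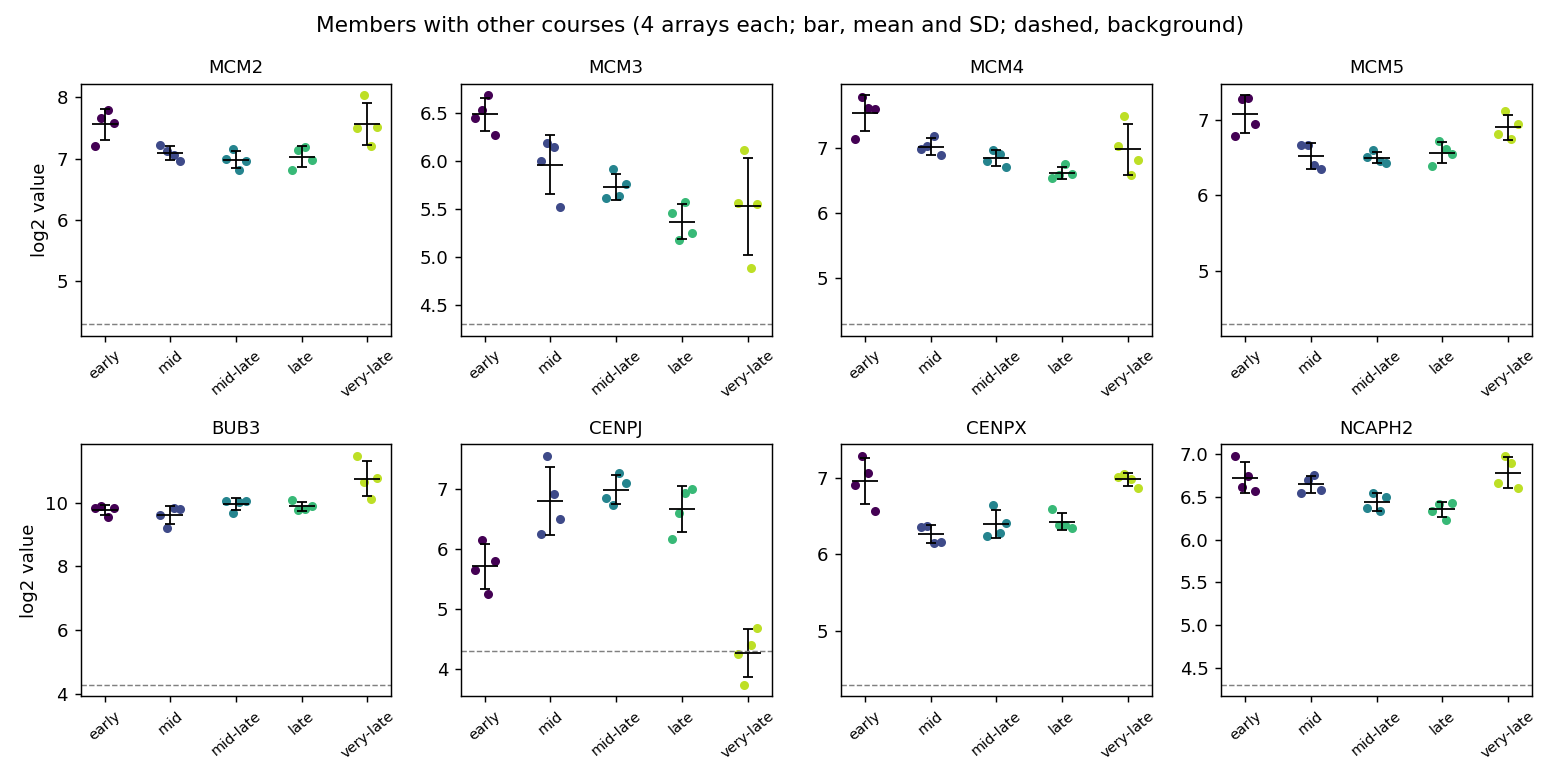
Log2 values of 8 members on each array (points), by stage from early to very-late, with the mean and SD of 4 arrays and a dashed line at the background of 4.30; the vertical axes do not start at 0. MCM2, CENPX and NCAPH2 have very-late arrays above their late arrays, BUB3 is highest at very-late (10.11 to 11.46), and CENPJ is lowest there (3.73 to 4.69).

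The other genes of the pathway were read from lists drawn up with earlier results of these data known. Of 31 further mitosis genes measured, 19 fell and 0 rose at late relative to early, where 8.07% of all genes were called lower and 4.22% higher, with a median difference of -0.59. The kinesin KIF2C differed by -1.75 ± 0.17, the kinetochore protein ZWINT by -1.50 ± 0.21 and the spindle protein CKAP2 by -1.45 ± 0.15 (limma adjusted p = 2.25e-05, 0.000284 and 3.24e-05). FOXM1, a transcription factor of mitotic genes, was not above background at late and was at least 1.88-fold lower. Of 29 further replication genes 10 fell and 0 rose, with a median of -0.32: TYMS, which makes thymidylate, fell by 1.36 ± 0.22, POLD2, a subunit of DNA polymerase delta, by 0.96 ± 0.11 and RRM1, of ribonucleotide reductase, by 0.93 ± 0.14 (limma adjusted p = 0.000864, 4.12e-05 and 0.000516). UHRF1, which helps copy DNA methylation, was not above background at late and was at least 2.46-fold lower. Of 26 regulators of the cell cycle 7 fell and 1 rose. CDKN3, a phosphatase of CDKs, fell by 1.70 ± 0.20 and MYBL2, a transcription factor of dividing cells, by 1.05 ± 0.14 (limma adjusted p = 5.63e-05 and 0.000186). The CDK inhibitor gene CDKN2A rose by 1.37 ± 0.33 (limma adjusted p = 0.0139).

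At very-late relative to late, 3 of the 31 mitosis genes fell and 1 rose, 1 of the 29 replication genes fell and 3 rose, and 5 of the 26 regulators fell and 2 rose. With 11.2% of all genes called lower and 10.2% higher, the counts of mitosis genes that fell and of replication genes that rose were near the share of all genes. The 3 higher replication genes were DTL (0.86 ± 0.13), POLD1 (0.69 ± 0.11) and RPA2 (0.65 ± 0.20; limma adjusted p = 0.000102, 0.000237 and 0.0407). DTL targets replication proteins for destruction, POLD1 is the catalytic subunit of polymerase delta, and RPA2 binds single-stranded DNA. GMNN, the inhibitor of origin licensing, fell by 1.19 ± 0.30 (limma adjusted p = 0.0104). Among the regulators CDKN2A, not above background at very-late, was at least 2.88-fold lower, and CDKN1A, another CDK inhibitor gene, fell by 1.23 ± 0.18 (limma adjusted p = 0.00147 and 0.000112).

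Markers of the cell types in the gland differed between the same stages, for which the shares of all genes called were 8.07% lower and 4.22% higher at late relative to early, and 11.2% lower and 10.2% higher at very-late relative to late. At late relative to early 5 of 12 endothelial markers rose and 0 fell, with array means of 7.52 to 7.66 at late and 7.06 to 7.27 at early. FLT1 alone of the 12 was under background over the 20 arrays. Macrophage markers rose in 2 of 12, with means of 7.29 to 7.87 at late and 6.69 to 7.09 at early. At very-late relative to late 5 of the 12 endothelial markers fell and 0 rose (6.76 to 7.68 at very-late and 7.52 to 7.66 at late), 5 of the 12 macrophage markers rose and 0 fell (8.33 to 8.62 at very-late and 7.29 to 7.87 at late), and all 5 steroidogenic markers fell (7.30 to 9.02 at very-late and 11.0 to 11.9 at late). Of 5 pericyte markers 2 fell (7.41 to 7.97 at very-late and 7.75 to 8.24 at late), and of 6 fibroblast markers 2 fell (7.74 to 8.30 at very-late and 8.46 to 8.82 at late). Of 6 lymphocyte markers 2 rose (5.09 to 5.27 at very-late and 4.53 to 4.97 at late), with CD79A and MS4A1 under background. The part of these changes in the members' values was not tested.

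Each gene outside the rule was compared with the mean of the members' centred values over the 20 arrays. Of 14079 genes, the 10 most alike had Pearson r of 0.977 to 0.944: LOC714349, CDKN3, KIF2C, IFT46, PIMREG, DEPDC1, UBE2K, TUBG1, MYBL2 and H2AC6. These arrays share their stages, so a gene that changes with stage in the same way is alike by that alone. CDKN3 averaged 6.51, 5.42, 5.27, 4.81 and 4.58 from early to very-late, and KIF2C averaged 6.46, 5.69, 5.25, 4.71 and 4.54. Among the members themselves CCNB1 was the most like their mean (r = 0.979) and MCM9 (r = -0.58) and BUB3 (r = -0.51) the least.

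Where a member had several probe sets, they did not always move together. Of the 14 members called at late relative to early that had more than 1, 11 had all probe sets on the same side of 0 and 6 had another probe set past the test in the same direction. The dimmer probe sets of CCNB1 and TOP2A differed by -1.29 and -1.06 (limma adjusted p = 0.000136 and 0.000293), and those of MKI67, both under background at every stage, by -0.22 and -0.21 (limma adjusted p = 0.208 and 0.258). The second MCM4 probe set, above background at 4.44 at late and 4.74 at early, was at -0.29 (limma adjusted p = 0.509), and the mean over the probe sets of MCM4 was at -0.33 (limma adjusted p = 0.0455). The second MCM5 probe set, above background, was below early by 0.35 at mid, 0.33 at mid-late and 0.29 at late, and passed at none (limma adjusted p = 0.351, 0.237 and 0.265). Another 2 NCAPH2 probe sets above background were at -0.29 and -0.20 at late relative to early and did not pass (limma adjusted p = 0.212 and 0.446). At very-late relative to late the second TOP2A probe set was at -0.25 (limma adjusted p = 0.328).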

How the data were processed

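RNA of 20 corpora lutea was hybridised to Affymetrix rhesus arrays, 1 array each. The deposited log2 values were made by the authors with RMA, per the submitters' processing notes; its version and the chip definition are not given in the sources used here. They ran from 2.48 to 14.28 and were used as deposited. Of 52865 probe sets, 158 controls were left out. Of the 52707 tested, 24956 had 1 symbol in the platform's annotation, 361 several and 27390 none. All 53 members kept their symbol in the current gene table, and 23 had more than 1 of their 90 probe sets. No probe or promoter sequence was used.

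In R 4.3.3, limma 3.58.1 fitted 5 stage means to 20 arrays (15 residual and 2.75 prior degrees of freedom). Tests were two-sided, with Benjamini-Hochberg adjustment over all 52707 probe sets in each comparison. "At least" folds set arrays under the background to it. On simulated data for late against early, 74%, 92%, 96% and 100% of true changes of 1.5, 2, 4 and 8-fold were recovered, with 9 false calls. The changed probe sets were drawn at random from all tested. Noise was independent, at each probe set's own spread, and no other stage differed. The rates therefore need not hold for the members.

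The members and gene lists were chosen with earlier results of these data known. Every member may be named. Full statistics went to the largest and smallest late minus early difference of each role, to the MCM subunits, CCNB1, CCNB2, CDK1, TOP2A and MKI67, and to members against the rest. Up to 4 genes with the largest change were taken per other list, and the 10 genes most alike. Alternatives covered scaling, dim probe sets, the variance prior, array weights, probe set choice, threshold, samples and a replicate block. Over all 52707 probe sets, same-numbered arrays did not deviate together (40 pairs, median r = -0.02, range -0.21 to 0.21). This was not checked for the members alone. For members above background, replicate 2 was the highest array for 27 at early, 23 at mid, 24 at mid-late, 4 at late and 21 at very-late.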

Additional observations from a re-analysis of the deposited data

Results flagged for a closer look

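In 9 of 190 groups of 4 arrays that were checked, 1 array lay far from the other 3, by a gap above Dixon's critical value for 4 values. Chance gives about 1 such group in 20, so this number is no more than chance would give. AURKA was at 4.72 in mid-late replicate 3, against 5.00 to 5.01 in the other mid-late arrays. BUB3 was at 9.54 in early replicate 3 (others 9.82 to 9.88) and at 9.66 in mid-late replicate 2 (others 10.01 to 10.05). CCNA2 was at 5.31 in early replicate 2 (others 4.68 to 4.75). CCNE1 was at 4.77 in mid replicate 2 (others 4.39 to 4.45). GINS2 was at 4.65 in late replicate 4 (others 4.84 to 4.86). MCM10 was at 4.17 in mid replicate 4 (others 4.48 to 4.53). In very-late replicate 2, ORC3 was at 5.27 (others 4.82 to 4.83) and TRIP13 at 5.31 (others 4.81 to 4.84).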

How the results depend on the processing

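The counts of members called at any stage and at late and very-late relative to early stayed within 1.5 times of those reported under every alternative run, and that between mid-late and mid stayed at 0. Leaving out each array in turn gave 35 to 39 for any stage, 2 to 8 for mid, 11 to 20 for mid-late, 26 to 31 for late and 31 to 37 for very-late, each relative to early, 0 between mid-late and mid and between late and mid-late, and 9 to 14 between very-late and late. For mid relative to early the count was 1 at an adjusted p under 0.01, 0 with only the 8 arrays of the 2 stages, 10 without very-late replicates 1 and 2, and 1 with a term for the mitochondrial split, which was added after seeing the data. For mid-late relative to early it was 8 at an adjusted p under 0.01 and 26 with array weights. Between late and mid-late it was 1 with array weights and 1 with only 8 arrays. Between very-late and late it was 7 where all probe sets of a member had to pass and 7 without very-late replicates 1 and 2. No direction reversed. The causes were not tested. The replicate number as a block gave 39 members at any stage, 5, 18, 31 and 39 at the later stages in order relative to early, 0 and 0 between the next neighbours and 12 between very-late and late. Mid could not be fitted on the 13 arrays high in mitochondrial probe sets, which hold no mid array. Signal over background limits the 11 members that were not above it, for which no fold is given, and members under it at a later stage have only a bound.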

Other observations

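Corpora lutea of a stage differed from each other in many members at once. Among the 42 members above background, early replicate 2 was the highest early array for 27, mid replicate 2 the highest mid array for 23 and mid replicate 4 the lowest for 21, mid-late replicate 2 was the highest mid-late array for 24, and very-late replicate 2 was the highest very-late array for 21 and very-late replicate 3 the lowest for 21. Over all genes the same arrays held these places for 24.0%, 30.1%, 28.6%, 27.2%, 28.2% and 24.7% of genes, in that order. After each stage's mean was subtracted, MCM2, MCM3, MCM4 and MCM5 correlated over the 20 arrays with a median r of 0.70 over 6 pairs, and CCNB1, CCNB2, CDK1, TOP2A, MKI67, NCAPG, CENPF and MELK with a median r of 0.62 over 28 pairs. Between these 2 sets the median was 0.45 over 32 pairs, and over all 861 pairs of the 42 members it was 0.23. The sets were chosen after their values were seen, and all genes share the same arrays. The mean of the 4 MCM genes was 7.19 in very-late replicate 2, and 6.35 to 6.72 in the other very-late arrays, where late arrays had 6.30 to 6.53. The mean of the 8 mitotic genes was 4.15 to 4.94 in very-late and 4.72 to 5.32 in late arrays.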
